A study of Homo sapiens and Mus musculus with 16 samples.

Results

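The chromatin regulator genes described here were 48 genes whose products write, erase or read marks on histones and DNA, move nucleosomes or fold chromosomes. They were chosen by name from the 20033 human protein-coding genes, and their 48 mouse orthologs were taken from 21938. ATAC–seq, which reads accessible DNA through transposase insertions, had been performed on 16 samples in 4 groups of 4 replicates. In HPAF-II, a human pancreatic adenocarcinoma cell line, cells edited with CRISPR at HNF4G (HNF4G-KO, a pool of single-cell clones that carry heterozygous frameshift mutations) were set beside control cells that received Cas9. KPC cells come from a genetic mouse model of pancreatic cancer, and here an untreated primary tumor cell line was set beside an untreated cell line from liver metastases (mets). The study describes these as matched isogenic lines. Each group was held as 1 list of accessible regions, and a region belonged to a gene if it lay within 50 kb of any of the gene's annotated start sites. That rule gave 617 of 118107 control regions, 531 of 97047 HNF4G-KO regions, 470 of 68074 primary tumor regions and 527 of 80843 mets regions.

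As background, histone methyltransferases and acetyltransferases add the marks that accompany active or silent genes, demethylases and deacetylases remove them, and reader proteins bind them. SWI/SNF complexes use ATP to slide or evict nucleosomes, CTCF and cohesin shape loops, and the DNMT and TET enzymes add and oxidize methyl groups on cytosine. Many of these genes are recurrently mutated in pancreatic and other cancers, and most are transcribed in nearly every cell from promoters rich in CpG.

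No value per replicate was held, read depth was unknown, and no difference below has a replicate check or a test. Scores were used only as ranks, because their scale is not stated. A percentile "in its list" is the rank of the score among the regions of that list, in percent, with ties at their mean rank, and a percentile "among shared regions" ranks only regions that overlap the other list of the pair by at least 1 bp. A change is the second percentile among shared regions minus the first (HNF4G-KO minus control, or mets minus primary tumor), each region being paired with its longest overlap, and was called at 10 points or more. Intervals are Wilson 95% intervals, which cover counting error only. The lists were of unequal length, and 24.96% of all control regions, 6.76% of HNF4G-KO, 8.51% of primary tumor and 20.2% of mets regions lay in that list alone. The epithelial markers EPCAM, CDH1, KRT8, KRT18 and KRT19 had a promoter region in every list (5 of 5). Leukocyte markers had one for 2 of 4 genes in both HPAF-II lists and 0 of 4 in both KPC lists, endothelial markers for 0 of 3 and 2 of 3, fibroblast markers for 3 of 3 and 2 of 3, and hepatocyte markers for 1 of 3, except 0 of 3 in mets. What part this has in the results was not tested. HNF4G and Hnf4g had a promoter region in both lists of their pair, which is no check of a frameshift.

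Nearly all chromatin regulator genes had an accessible promoter, defined as a region within 1 kb of an annotated start site of the gene. In control, 47 of 48 had one (97.9%, 89.1% to 99.6%), against 74.8% of all protein-coding genes. In HNF4G-KO, 48 of 48 had one (100%, 92.6% to 100%), against 72.8%. In the primary tumor line, 46 of 48 had one (95.8%, 86.0% to 98.8%), against 58.0%, and in mets 47 of 48 (97.9%, 89.1% to 99.6%), against 59.1%. Counting only regions in the upper 50% of their list by score, 44, 45, 34 and 36 of 48 genes had one (control, HNF4G-KO, primary tumor and mets). With only the 5′ end of the gene as its start, 42, 44, 41 and 41 did. Over all starts and regions, the exceptions were TET1 in control, Tet1 and Kdm6b in the primary tumor line and Kdm6b in mets. The strongest promoter region of these genes had a median percentile in its list of 83.3 in control, 80.4 in HNF4G-KO, 63.6 in the primary tumor line and 66.1 in mets, against 85.0, 84.7, 74.3 and 76.9 over all protein-coding genes with a promoter region. Each of these medians lay below that of all genes, by the most in KPC. Of the promoters listed in 1 list of a pair alone, none was in control (0 of 47, against 3.59%) and none in the primary tumor line (0 of 46, against 1.83%).

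TET1, a dioxygenase that oxidizes 5-methylcytosine, was the only one of these genes to go from no promoter region to at least 1 in either pair, and it did so in both. Control held 5 regions within 50 kb of the single GENCODE start of TET1, all shared, and the nearest lay 9208 bp away. HNF4G-KO held 8, of which 3 were in HNF4G-KO alone. A 412-bp region over the start, chr10:68560148-68560559 in hg38, stood at percentile 18.8 in its list, and a 219-bp region 360 bp from the start, chr10:68560697-68560915, stood at 10.5. The other new region, chr10:68594541-68594784, lay in an intron of TET1 at percentile 4.04. All 3 were weak regions. Among protein-coding genes with a promoter region in HNF4G-KO, 0.871% had none in control. On human chromosome 10, which holds TET1, 10.7% of HNF4G-KO regions were in that list alone, against 6.76% on all chromosomes. The sequence below is shown because it holds the upstream part of the region that only the HNF4G-KO list has at this start, with 189 of its bases inside that region and the first 61 outside it. It gives the 250 bases before the TET1 start (RefSeq promoter table, GRCh38.p14, chr10:68560087-68560336, plus strand), with its 9 CpG dinucleotides in capitals and a GC content of 51.6%.
TET1: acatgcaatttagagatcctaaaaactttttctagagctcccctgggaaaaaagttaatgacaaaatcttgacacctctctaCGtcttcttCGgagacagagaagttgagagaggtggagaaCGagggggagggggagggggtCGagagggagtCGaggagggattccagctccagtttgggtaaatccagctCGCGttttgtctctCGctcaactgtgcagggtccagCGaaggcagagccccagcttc

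Mouse Tet1 also had its promoter region in the second list alone, but at a different start. The primary tumor line held 4 regions near Tet1, none at a start site, and mets held 6, of which 2 were in mets alone. A 685-bp region, chr10:62865234-62865918 in mm10, covered a start site inside the gene, 43.7 kb downstream of its 5′ end, and stood at percentile 25.5 in its list. The other, chr10:62808330-62808652, was centred in a Tet1 UTR 5887 bp from the nearest annotated start and stood at 59.5, so it was the stronger of the 2. In mets, 3.71% of protein-coding genes with a promoter region had none in the primary tumor list. On mouse chromosome 10, which holds Tet1, 26.6% of mets regions were in mets alone, against 20.2% on all chromosomes. The 250 bases before that internal start (GRCm38, chr10:62865305-62865554, minus strand, read in the direction of transcription) are shown because a stretch of 48 bases in them, in capitals, is identical in the human gene.
Tet1: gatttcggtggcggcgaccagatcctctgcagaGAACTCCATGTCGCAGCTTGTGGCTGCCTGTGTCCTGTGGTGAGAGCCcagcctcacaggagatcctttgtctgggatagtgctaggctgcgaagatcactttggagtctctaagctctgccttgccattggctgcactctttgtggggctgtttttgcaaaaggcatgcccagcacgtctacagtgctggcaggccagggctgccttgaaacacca

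The human copy of this stretch lies in the 250 bases before an internal RefSeq start of TET1 at position 68600474 of chromosome 10, where 82 of 95 aligned bases were the same (86.3%). Against the windows before the other RefSeq starts of TET1 the longest identical run was 8 bases. In HPAF-II that internal start was covered in both lists, by a 1260-bp region in control (chr10:68599533-68600792) at percentile 59.0 in its list and a 1258-bp region in HNF4G-KO (chr10:68599544-68600801) at 57.3. The region that only mets held near Tet1 thus had a counterpart by sequence in human that both HPAF-II lists held. It was not the start at which HNF4G-KO gained its region. GENCODE v44 gives TET1 1 start, so the internal region was not counted as a promoter.

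**Figure D1:**
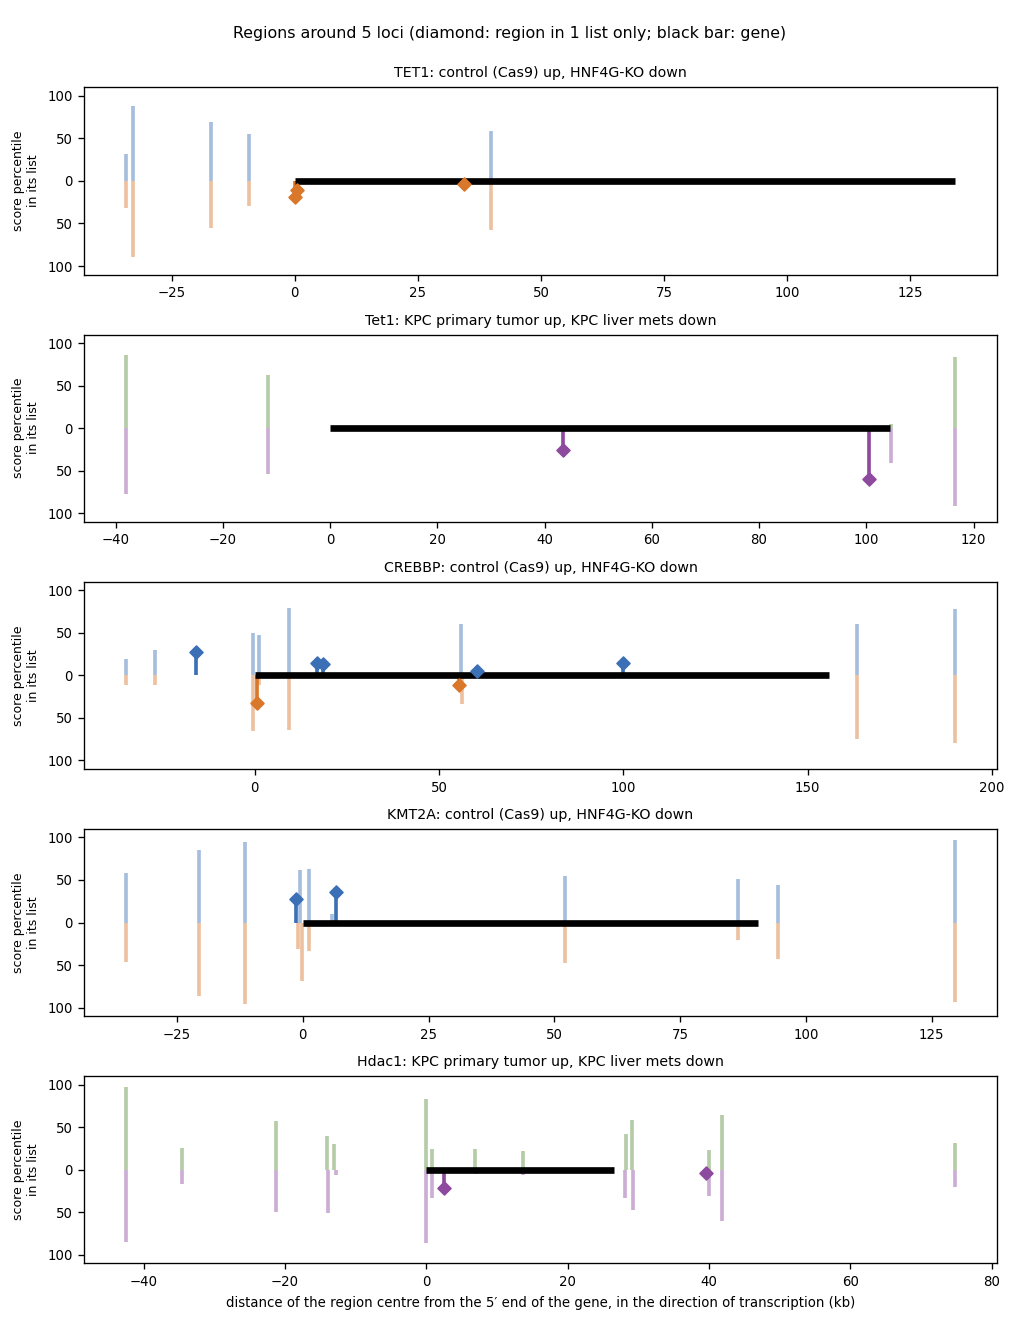
Regions within 50 kb of the start sites of TET1, Tet1, CREBBP, KMT2A and Hdac1, by the distance of the region centre from the 5′ end of the gene (kb, x axis) and the score percentile in its list (y axis), with the first list of each pair upward and the second downward. Diamonds are regions in 1 list alone, such as the HNF4G-KO regions at the TET1 start at 18.8 and 10.5 and the mets region inside Tet1 at 25.5.

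Kdm6b and Setd1b were the other mouse genes without a shared promoter region. Kdm6b, a demethylase of H3K27, had 14 primary tumor regions and 17 mets regions within 50 kb but none within 1 kb of its 2 annotated starts. The nearest in the primary tumor line lay 1584 bp away, at percentile 7.47 in its list. Human KDM6B had 4 promoter regions in each HPAF-II list. Setd1b, an H3K4 methyltransferase, had 1 promoter region in each KPC list, and these did not overlap: chr5:123141056-123141428 in the primary tumor line at percentile 15.5 and chr5:123163000-123163248 in mets at 16.4.

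The next comparison was of which regions each list held. In HPAF-II, 120 of 617 control regions near these genes were in control alone (19.4%, 16.5% to 22.8%), against 22.7% of control regions near any protein-coding start site. In the opposite direction, 23 of 531 HNF4G-KO regions were in HNF4G-KO alone (4.33%, 2.90% to 6.42%), against 6.41%. In KPC, 33 of 470 primary tumor regions were in that list alone (7.02%, 5.04% to 9.70%), against 8.15%, and 64 of 527 mets regions were in mets alone (12.1%, 9.63% to 15.2%), against 17.7%. The mets share was thus below its background by more than its counting interval, whereas the HPAF-II and primary tumor shares reached within theirs. Within 10 kb the mets share was 10.6% (7.12% to 15.6%), against 15.0%. For regions whose nearest coding start site was of one of these genes it was 13.2% (9.37% to 18.2%), against 17.7%. Both of these intervals held the background. Regions within 1 kb of any start site were 247 of 527 mets regions here, against 20530 of 63711 near any coding start site. What part this has in the mets share was not tested. The 94 other chromatin regulator genes set beside them gave 18.9%, 7.31%, 7.66% and 12.0%, so the low mets share was found in both lists of genes. Split by place, 36 of 288 control regions within 1 kb of any start site were in control alone (12.5%, against 13.5%) and 84 of 329 others (25.5%, against 26.8%). In HNF4G-KO these were 9 of 270 (3.33%, against 3.93%) and 14 of 261 (5.36%, against 7.64%). In the primary tumor line they were 16 of 235 (6.81%, against 5.76%) and 17 of 235 (7.23%, against 9.35%), and in mets 16 of 247 (6.48%, against 9.4%) and 48 of 280 (17.1%, against 21.6%). Each share but that of primary tumor promoters lay below its background.

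The asymmetry within a pair moved with list length. With both lists of a pair cut to the same number of strongest regions, the share in control alone was 8.996% (against 11.9%) and the share in HNF4G-KO alone 10.8% (against 11.3%). The same step gave 16.2% for the primary tumor line (against 14.1%) and 6.60% for mets (against 10.9%). The order of the shares turned in both pairs, and the primary tumor share then lay above its background. Regions in 1 list were weak. Their median percentile in their own list was 15.1 in control, 18.5 in HNF4G-KO, 11.2 in the primary tumor line and 17.6 in mets, and 3, 0, 0 and 3 of them stood above percentile 50. The strongest in control lay 2793 bp from a start of NSD2, which dimethylates H3K36 (chr4:1868124-1868600, percentile 70.9), and the others at ARID1B (57.0 and 51.8). In mets they lay near Kdm3a (chr6:71554833-71555163, 65.2, centred in an intron of Chmp3), in Tet1 (59.5) and near Suz12 (chr11:80069720-80070170, 51.1, in an intron of Crlf3).

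**Figure D2:**
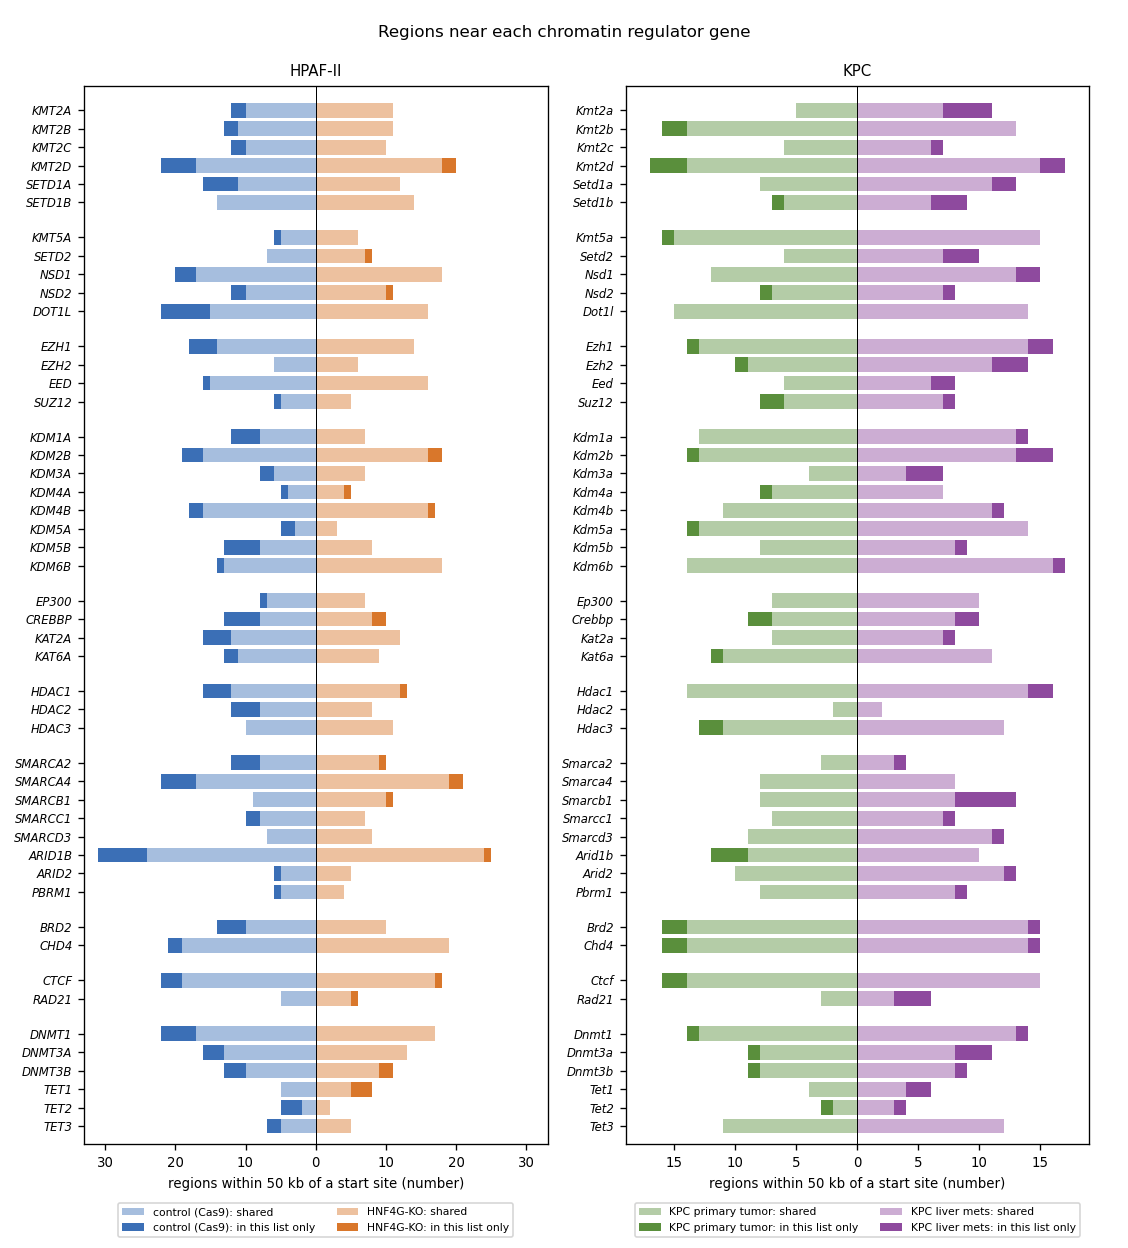
Number of regions within 50 kb of a start site of each gene (x axis), control and primary tumor to the left and HNF4G-KO and mets to the right, with regions in that list alone in the darker shade. ARID1B has the most regions in HPAF-II, 31 in control and 25 in HNF4G-KO, and the bars of TET1 and Tet1 are longer on the right, 8 against 5 and 6 against 4.

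Genes differed in how many such regions they had (ties below are ordered by the share of the gene's regions). ARID1B, which encodes the DNA-binding subunit of a SWI/SNF complex, and DOT1L, the H3K79 methyltransferase, had the most regions in control alone, with 7 of 31 and 7 of 22. CREBBP and KDM5B followed with 5 of 13 each and SETD1A with 5 of 16. In HNF4G-KO alone, TET1 led with 3 of 8, before CREBBP (2 of 10), DNMT3B (2 of 11), KDM2B (2 of 18) and KMT2D (2 of 20). In the primary tumor line alone, Arid1b (3 of 12) and Kmt2d (3 of 17) stood before Suz12 (2 of 8), Crebbp (2 of 9) and Hdac3 (2 of 13). Smarcb1, a core SWI/SNF subunit, led in mets alone with 5 of 13, all of them nearer to another coding gene. Kmt2a (4 of 11), Rad21 (3 of 6), Kdm3a (3 of 7) and Setd1b (3 of 9) came next. At least 1 region in that list alone was found for 40 of 48 genes in control (83.3%, against 76.8% of all protein-coding genes), 16 in HNF4G-KO (33.3%, against 34.9%), 22 in the primary tumor line (45.8%, against 32.6%) and 35 in mets (72.9%, against 56.4%). These genes also had more regions than most, with a median of 12.5, 10.5, 9 and 11 in the 4 lists against 9, 8, 6 and 7. Regions were counted around every annotated start, of which some genes had many (66 for SMARCA2), and the part of this was not tested. Of the 94 other regulators, 79, 51, 44 and 62 had at least 1 region in that list alone. The gene was the nearest protein-coding gene for 51.9% of the control regions assigned to it, 50.8% in HNF4G-KO, 42.8% in the primary tumor line and 43.3% in mets, so that many of these regions may equally be counted to a neighbor.

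Regions in both HPAF-II lists moved little as a group. The 497 shared regions changed by a median of 1.60 points (quartiles -4.12 and 8.86), against 0.39 for shared regions near any protein-coding start site. Of them, 106 rose by 10 points or more (21.3%, 18.0% to 25.1%), against 18.9%, and 70 fell (14.1%, 11.3% to 17.4%), against 17.1%. Within 1 kb of any start site, 55 of 252 rose (21.8%, against 21.2%) and 24 fell (9.52%, against 10.1%), and elsewhere 51 of 245 rose (20.8%, against 17.6%) and 46 fell (18.8%, against 20.7%). The strongest promoter region changed by a median of 0.93 points over the 47 genes that had a shared one, against 1.03 over all protein-coding genes, and 7 of 47 rose (14.9%, 7.41% to 27.7%; 13.6% of all coding genes) and 3 fell (6.38%, 2.19% to 17.2%; 6.74%). These shares were near their background. Of the 47, 23 changed by under 5 points either way, a share that was not counted over all genes. The quartiles over the 47 genes were -3.13 and 7.30, wider than the -2.01 and 5.53 of all protein-coding genes.

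The genes whose promoter rose most in HNF4G-KO were SMARCD3, CREBBP, KMT2D, KAT2A and PBRM1, followed by NSD1 (15.95 points) and KMT2C (13.0 points). With percentiles over the whole list, NSD1 (5.22) and KMT2C (4.88) did not reach 10 points. SMARCD3, a SWI/SNF subunit, went from percentile 20.2 to 57.7 among shared regions, a change of 37.5, at chr7:151249121-151249539. Its other promoter region, chr7:151277166-151277404, also rose, by 14.1 points from a low percentile of 9.77 in its list. CREBBP, the acetyltransferase paralog of EP300, went from 34.3 to 62.2 at the region over its start (chr16:3880651-3881855), a change of 28.0. Beside that region HNF4G-KO held a further one over a start that control did not have (chr16:3879951-3880165, percentile 32.1), while the promoter region at chr16:3879416-3879788 fell by 23.6 points. The CREBBP promoter thus held a rise, a fall and a new region side by side. KMT2D, a methyltransferase of H3K4 at enhancers, went from 35.9 to 57.4, KAT2A, the acetyltransferase of the SAGA complex, from 60.8 to 79.9, and PBRM1, the polybromo subunit of a SWI/SNF complex, from 67.5 to 84.5.

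The promoters that fell most in HNF4G-KO were those of KMT2A, KAT6A and TET2, and then NSD2 (-8.97 points) and TET3 (-8.01 points), which did not reach the 10-point size. With percentiles over the whole list, NSD2 (-12.7), SETD1B (-11.97) and KDM5B (-11.2) also reached it. KMT2A, the founding mammalian H3K4 methyltransferase, went from percentile 50.1 to 27.3 among shared regions at chr11:118437216-118438093, a change of -22.8. Its other promoter region, over the start at chr11:118435318-118436576, rose by 15.7 points, and the strongest KMT2A promoter region was a different one in the 2 lists. KAT6A, an acetyltransferase of H3K23, went from 85.9 to 68.3. The HNF4G-KO region paired with it at percentile 71.5 in its list also spanned a second control region of KAT6A, which stood at 57.0 in its list and gave a change of 25.1. TET2 went from 64.0 to 52.4, and 3 of its 5 control regions were in control alone. TET2 and NSD2 lie on human chromosome 4, where 33.9% of control regions were in control alone, against 24.96% on all chromosomes. Shared regions of that chromosome changed by a median of -4.50 points.

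**Figure D3:**
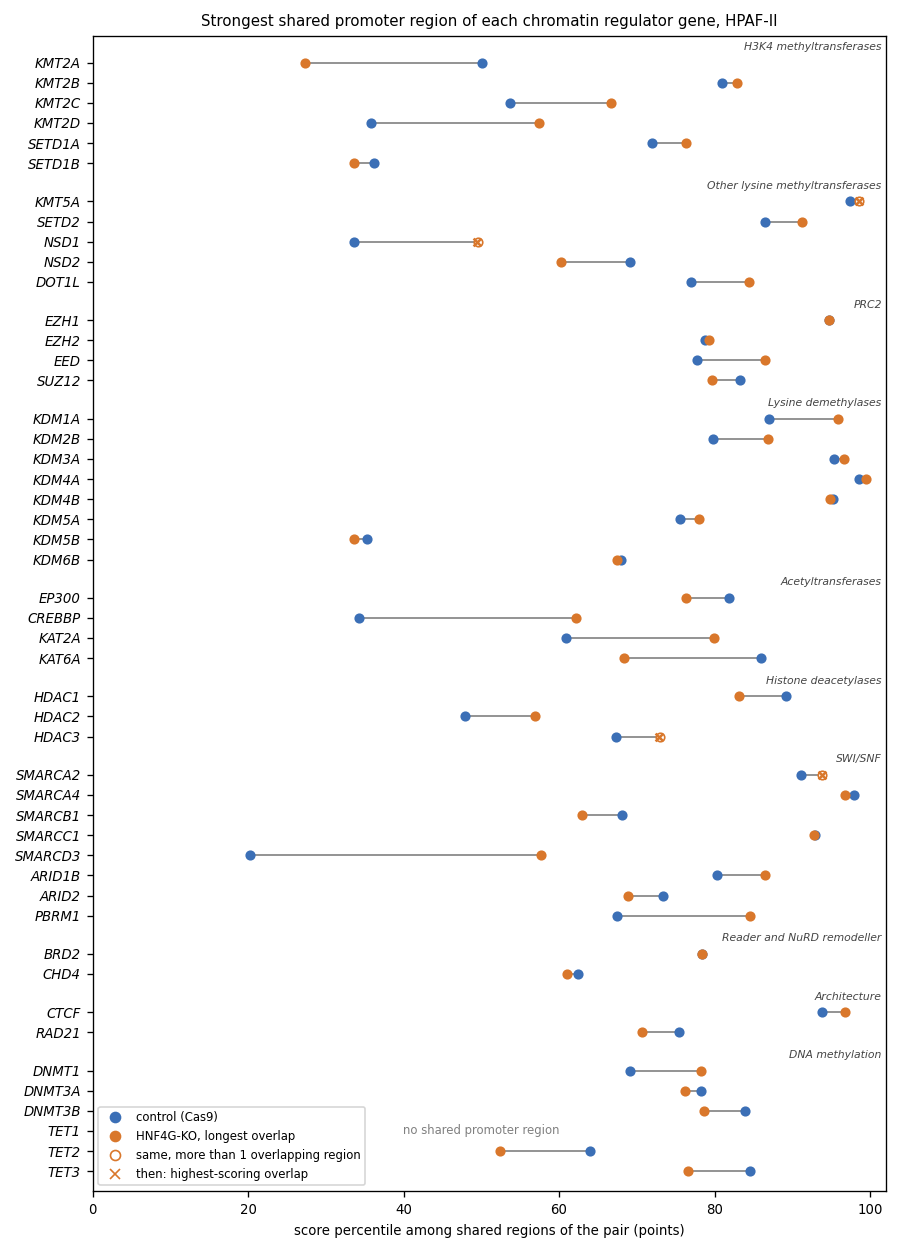
Score percentile among shared regions (x axis) of the strongest shared promoter region of each gene in control (blue) and of its partner in HNF4G-KO (orange), by the role of the gene, where an open circle marks the partner of a control region that overlaps more than 1 HNF4G-KO region and a cross the highest-scoring of these. SMARCD3 has the longest line, from 20.2 to 57.7, and KMT2A and KAT6A the longest lines to the left.

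In KPC the shared regions near chromatin regulator genes leaned the other way when ranked among shared regions. The 437 shared regions changed by a median of -0.73 points (quartiles -9.68 and 6.12), against 0.18. With percentiles over the whole list the medians of both pairs turned in sign, to -2.46 in HPAF-II (-3.95 near all coding genes) and 2.49 in KPC (3.68). Of them, 61 rose (14.0%, 11.02% to 17.5%; 19.0% of shared regions near coding genes) and 108 fell (24.7%, 20.9% to 29.0%; 19.5%). The excess of falls lay outside promoters, where 66 of 218 regions fell (30.3%, 24.6% to 36.7%), against 20.1%, and 40 rose (18.3%, against 22.2%). Within 1 kb of any start site 42 of 219 fell (19.2%, against 18.4%) and 21 rose (9.59%, against 13.0%). At the strongest promoter region, 2 of 45 genes rose (4.44%, 1.23% to 14.8%; 8.42% of all coding genes) and 11 fell (24.4%, 14.2% to 38.7%; 18.4%), which stayed within the interval. In 12 of the 45 genes the primary tumor region overlapped more than 1 mets region, among them 6 of the 11 that fell. When the highest-scoring of these was taken as the partner, 10 genes fell and 3 rose.

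Ctcf, Nsd1, Smarcd3, Ep300 and Arid1b had the promoters that fell most in mets, and in each the primary tumor region was split into 2 mets regions. Ctcf went from percentile 42.3 to 7.61 among shared regions, a change of -34.7 at chr8:105635865-105637268. Its 2 mets regions stood at 15.3 and 17.1 in their list, so the fall did not depend on which was taken (-33.8 with the stronger). The primary tumor region of Ctcf also lay within 1 kb of a start of Agrp. Shared regions flanking Ctcf changed by a median of -5.16 points. Nsd1, which dimethylates H3K36, went from 33.5 to 4.54 (-28.9, or -28.7 with the stronger partner). Ep300 went from 80.5 to 58.2 (-22.3, or -22.5). Arid1b went from 40.6 to 18.6 (-21.9, or -13.4). Smarcd3 went from 39.3 to 15.8 (-23.5), but a second mets region under the same primary tumor region stood at 62.3 in its list, and with that partner the change was 13.0. Its direction thus depended on the pairing. The falls of Kdm2b (-20.5), Hdac2 (-18.0), Kmt2c (-14.6), Kat2a (-13.8) and Kdm5b (-11.2) came from regions with 1 partner. Tet3 fell by 13.3 points.

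Ranked among shared regions, Pbrm1 and Kdm1a were the genes whose promoter rose by 10 points or more in mets. Pbrm1 went from percentile 30.1 to 43.1 among shared regions (13.0), and Kdm1a, the H3K4 demethylase LSD1, from 44.8 to 55.9 (11.1). Below that size came 2 further SWI/SNF genes, Smarcb1 (9.17 points) and Smarca4 (9.01 points), and the cohesin gene Rad21 (8.93 points).

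**Figure D4:**
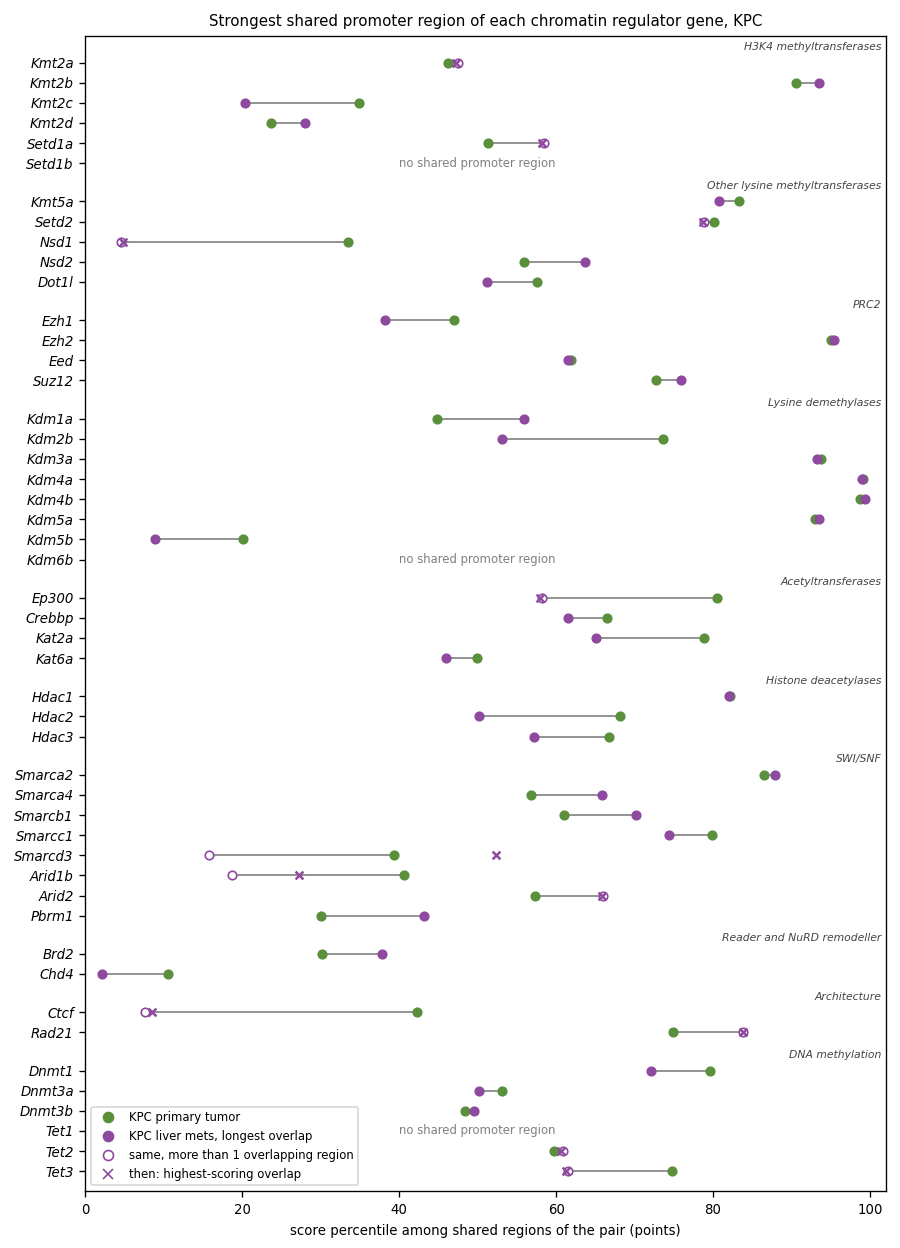
Score percentile among shared regions (x axis) of the strongest shared promoter region of each gene in the KPC primary tumor line (green) and of its partner in mets (purple), drawn as for HPAF-II with open circles where a primary tumor region overlaps more than 1 mets region and crosses for the highest-scoring of these. Ctcf shows the longest line, from 42.3 to 7.61, and the cross of Smarcd3 lies on the other side of its green point.

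Set side by side, the promoters of most genes did not move the same way in the 2 pairs. PBRM1 was the only gene whose promoter moved by 10 points or more in the same direction in both, rising by 17.1 in HNF4G-KO and by 13.0 in mets, and SMARCD3 joined it when the highest-scoring partner was taken. With percentiles over the whole list, KMT2D also rose by that size in both (10.5 and 11.4). The PBRM1 region lay within 1 kb of a start of GNL3 as well, in human and in mouse, so its rise may equally be counted to GNL3. Of the 7 promoters that rose in HNF4G-KO, 4 fell in mets: KMT2C (13.0 and -14.6), NSD1 (15.95 and -28.9), KAT2A (19.1 and -13.8) and SMARCD3 (37.5 and -23.5, the last with the dependence on pairing given above). With percentiles over the whole list, KMT2C changed by 4.88 and -7.51, NSD1 by 5.22 and -28.7 and KAT2A by 11.4 and -8.06. SMARCD3 changed by 25.5 and -17.1, and alone of these passed 10 points in both pairs on that scale. No promoter fell by 10 points or more in both pairs, and 27 of 45 passed that size in neither (60%). The changes had the same sign in 17 of 45 genes (37.8%), with a Spearman rho of -0.30 across genes. Over 10214 protein-coding genes matched by symbol, apart from case, between the 2 annotations, 25.5% of those that rose in HNF4G-KO fell in mets, 62.6% passed the size in neither pair, 47.0% had the same sign and rho was -0.07. The 4 of 7 above rest on few genes, of which SMARCD3 turns with the pairing. Levels were more alike, with a rho of 0.49 for the promoter percentile in control against the primary tumor line and 0.44 for the number of regions. These values describe 45 genes, which are not independent replicates, and each pair differs in organism, in comparison and in the length of its lists.

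By role, the H3K4 methyltransferases held 89 control regions, 16 of them in control alone (18.0%, 11.4% to 27.2%, against 22.7%). Of their 78 HNF4G-KO regions, 2 were in HNF4G-KO alone (2.56%, 0.71% to 8.88%, against 6.41%). Both intervals held the background. The shared regions of these methyltransferases changed by a median of 1.91 points in HPAF-II and 1.29 in KPC. KMT2A with its 2 opposite promoter regions, KMT2C, which fell in mets, and KMT2D were described above. KMT2B stood at percentile 85.7 in control and 84.6 in HNF4G-KO, and Kmt2b at 91.4 and 95.02 in KPC. The promoters of SETD1A and Setd1a differed by 4.28 and 7.13 points. Kmt2a held 5 primary tumor regions and 11 mets regions. SETD1B and KDM5B stood at 39.4 in HNF4G-KO, the lowest strongest-promoter percentile of that list after TET1.

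Of the other lysine methyltransferases, KMT5A, which monomethylates H4K20, had one of the strongest promoters (98.0 in control and 98.7 in HNF4G-KO). SETD2, which trimethylates H3K36, stood at 89.8 and 92.1 and Setd2 at 81.8 and 83.5, and the 2 KPC lists held 6 and 10 regions near it. NSD2 and Nsd2 differed by -8.97 and 7.79 points. The strongest mets promoter region of Nsd2 stood at 9.501 in its list, since the partner at 71.5 lay 1011 bp from the start, just outside the 1-kb limit, whereas the primary tumor region lay 997 bp from it. DOT1L and Dot1l differed by 7.46 and -6.39 points.

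The PRC2 genes EZH1, EZH2, EED and SUZ12, whose products methylate H3K27, stood between percentiles 83.3 and 96.0 in control and between 81.4 and 95.2 in HNF4G-KO (medians over all genes 85.0 and 84.7), and none of their 41 HNF4G-KO regions was in HNF4G-KO alone, which allows a share of up to 8.57%. Their 40 shared regions changed by a median of 0.37 points. In KPC, 34 shared regions changed by a median of -2.54 points, and 8 of 46 mets regions were in mets alone (17.4%, against 17.7%). The promoters of Ezh2, Eed and Suz12 differed by at most 3.12 points, and that of Ezh1 by -8.76.

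Among the lysine demethylases, KDM4A and KDM4B, which act on H3K9, stood above the median of all genes in each list (98.9 and 96.4 in control, 99.5 and 95.3 in HNF4G-KO, 99.1 and 98.8 in the primary tumor line, 99.2 and 99.5 in mets). KDM5B, a demethylase of H3K4, ranked far lower in every list (50.6, 39.4, 25.2 and 17.4). KDM1A stood at 90.3 and 96.3 in HPAF-II, a difference of 8.84 points among shared regions, and its ortholog rose in KPC as given above. KDM2B differed by 7.14 points in HPAF-II, while Kdm2b fell by 20.5. Over all 8 genes, 83 shared KPC regions changed by a median of -1.54 points.

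Acetyltransferases and deacetylases had the lowest medians in KPC. The 32 shared regions of Ep300, Crebbp, Kat2a and Kat6a changed by a median of -8.01 points (quartiles -15.3 and 1.95), and all 4 promoters were lower in mets, with changes of -22.3, -4.95, -13.8 and -3.93 points. The genes differed, with medians over their shared regions of -3.30, -12.5, 3.89 and -13.4 in the same order. The 27 shared regions of Hdac1, Hdac2 and Hdac3 changed by a median of -10 points (quartiles -15.9 and 0.42), and all 3 promoters were lower. Hdac1 held 14 of these regions (median -14.3), Hdac2 2 (median -3.01) and Hdac3 11 (median -6.89). With percentiles over the whole list, 2 of these 4 promoters (Crebbp, 0.41, and Kat6a, 2.70) and 1 of these 3 (Hdac1, 2.41) were higher in mets, so their direction depends on the ranking. At Hdac1 the fall lay away from the strongest promoter region. Of 14 shared regions, 10 fell by 10 points or more and none rose, while that region stood at percentile 83.6 in the primary tumor line and 86.0 in mets and differed by -0.11 points. Regions flanking the locus changed by a median of 0.36 points. In HPAF-II the same families showed no such lean, with medians of 4.15 and 0.09 points.

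Medians per gene rest on the same shared regions as the family medians above, so they are no separate support for them. Among the 42 KPC genes with at least 5 shared regions, Hdac1 (-14.3), Kat6a (-13.4) and Crebbp (-12.5) had a median at -10 points or lower (7.14%), against 3.33% of protein-coding genes, and none had a median at 10 or higher, against 2.66%. Kat6a lies on mouse chromosome 8, as does Ctcf, and there all shared regions changed by a median of -3.84 points. Those flanking Kat6a and Ctcf changed by medians of -6.52 and -5.16. Of the 45 such HPAF-II genes, CTCF had a median at 10 points or higher (11.3; 2.22%, against 2.62%), with 10 of 19 shared regions rising, and KAT6A (-13.4) and RAD21 (-13.1) at -10 or lower (4.44%, against 1.91%). KAT6A was thus the only gene with a median at -10 or lower in both pairs. How many of all coding genes have this was not counted. KAT6A and RAD21 both lie on human chromosome 8, where all shared regions changed by a median of 0.05 points, and their flanks changed by 0.97 and -3.62.

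SWI/SNF genes held 103 control and 91 HNF4G-KO regions. SMARCA4, the ATPase BRG1, stood at percentile 98.4 in control and 97.1 in HNF4G-KO, and SMARCA2, the ATPase BRM, at 93.3 and 94.4. Neither ATPase promoter moved by more than 2.65 points in HPAF-II. SMARCC1 differed by -0.14, SMARCB1 by -5.14, ARID2 by -4.52 and ARID1B by 6.09. In KPC, 5 of 8 promoters were higher in mets and 3 lower, and the 62 shared regions changed by a median of 1.30 points. BRD2, a bromodomain reader, and CHD4, the NuRD ATPase, differed by -0.01 and -1.42 points in HPAF-II. Chd4 had one of the weakest promoters, at percentile 14.8 in the primary tumor line and 15.7 in mets, whereas CHD4 stood at 71.8 in control.

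Of the architecture genes, CTCF had a stronger promoter in human (95.3 and 97.1) than in mouse (46.9 and 17.1), and RAD21 stood at 81.5 and 73.6 and Rad21 at 77.1 and 87.5. Of the DNA methyltransferases, DNMT1, the maintenance enzyme, differed by 9.18 points in HPAF-II and -7.61 in KPC, DNMT3A by -2.02 and -2.92 and DNMT3B by -5.25 and 1.12. The TET genes differed from one another. TET1 had a promoter region in HNF4G-KO alone, whereas TET2 fell and TET3 differed by -8.01 points. In mets, Tet1 had one alone, Tet2 differed by 1.14 points and Tet3 fell. Shared regions flanking TET1, TET2 and TET3 changed by medians of 6.44, -4.17 and -2.86 points in HPAF-II. Those flanking Tet1, Tet2 and Tet3 changed by 7.12, -0.77 and 1.11 in KPC. What part the surroundings have in these differences was not tested.

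Short sequences bound by transcription factors were searched on both strands of every region. The HNF4 letters CAAAGTCCA were in 8 control regions near these genes, 7 of them shared. Those 7 changed by a median of 4.67 points (3 lower and 4 higher), against -1.78 for 1113 shared regions with these letters near any protein-coding start site. They lay near EED (2 regions), EZH1 (2), DNMT1, EP300 and HDAC2. The strongest, 38006 bp from a start of HDAC2 (percentile 89.8 in control), fell by 18.6 points, and 1 of the EED regions fell by 10.05. These were the 2 of 7 that fell by 10 points or more, against 25.8% of the 1113, and 2 others rose by that size. The only region in control alone that held them lay near SMARCA2. These windows are shown, on the plus strand of hg38 with the letters or their reverse complement in capitals, as the HNF4 matches at regions that were lost or fell in HNF4G-KO (chr6:114049495-114049583, chr11:86179743-86179831 and chr9:2220207-2220295).
HDAC2: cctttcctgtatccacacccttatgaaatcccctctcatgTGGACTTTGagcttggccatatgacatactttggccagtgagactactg
EED: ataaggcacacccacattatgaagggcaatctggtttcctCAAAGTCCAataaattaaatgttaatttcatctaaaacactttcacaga
SMARCA2: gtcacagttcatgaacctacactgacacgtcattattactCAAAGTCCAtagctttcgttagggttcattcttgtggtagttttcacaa

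In KPC, 7 shared primary tumor regions near these genes held the HNF4 letters. They changed by a median of -14.2 points, against 0.36 for 745 such regions near any protein-coding start site. Of these few regions none rose by 10 points or more, and 4 of 7 fell by that size, against falls in 20.4% of the 745. Of these 4, the region 3474 bp from a start of Ezh2 fell by 31.2 points (percentile 42.7 to 13.8 in its list) and that 42339 bp from a start of Dnmt3b by 29.0. The Ezh2 region overlapped 2 mets regions, and its change is that with the longest overlap only. A region at a start of Hdac1 fell by 14.2 and one near Ezh1 by 17.5. The first pair of windows are shown in mm10 (chr6:47527821-47527909 and chr2:153606635-153606723, plus strand).
Ezh2: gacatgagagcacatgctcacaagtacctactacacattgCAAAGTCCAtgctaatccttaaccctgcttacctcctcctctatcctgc
Dnmt3b: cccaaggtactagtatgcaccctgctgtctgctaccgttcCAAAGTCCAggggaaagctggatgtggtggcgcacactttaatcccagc

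The FOXA letters TGTTTAC were rarer near these genes than near all coding genes. Outside promoters they were in 17 of 329 control regions (5.17%, 3.25% to 8.12%), against 9.41% of such control regions near any protein-coding start site, and in 15 of 280 mets regions (5.36%, 3.27% to 8.65%), against 9.04%. The AP-1 letters TGACTCA were in 24.6% of the same control regions (20.3% to 29.6%), against 33.6%, and in 31.4% of mets regions (26.3% to 37.1%), against 40.4%. HNF4G-KO (FOXA 6.51% against 9.45%, AP-1 26.1% against 34.9%) and the primary tumor line (5.96% against 9.77% and 31.5% against 43.0%) gave the same order, the FOXA share in HNF4G-KO within its counting interval. Region width was similar (medians of 403 bp near these genes and 414 bp near all coding genes in control), and the former were somewhat richer in GC (49.6% against 48.2%), the part of which in this was not tested. The following windows are shown as examples of the FOXA letters, on either strand, in regions that 1 list alone held outside promoters: near SETD2 in HNF4G-KO (hg38, chr3:47082645-47082731), near Crebbp in the primary tumor line and near Suz12 in mets (mm10, chr16:4112419-4112504 and chr11:80069939-80070025).
SETD2: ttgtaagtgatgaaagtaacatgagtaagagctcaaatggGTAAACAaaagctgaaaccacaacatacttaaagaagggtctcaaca
Crebbp: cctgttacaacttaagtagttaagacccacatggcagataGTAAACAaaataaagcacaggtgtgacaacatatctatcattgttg
Suz12: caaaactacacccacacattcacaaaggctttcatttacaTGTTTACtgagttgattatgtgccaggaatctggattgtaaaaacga

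At the promoters themselves, RefSeq windows from 250 bases before to 50 after each start were held for 42 of the 48 human genes. The FOXA letters were in windows of 4 of them, EZH1, KDM2B, NSD1 and TET2 (9.52%, against 4.19% of all genes in the table). The HNF4 letters were in none. The ETS letters CCGGAAGT were in KDM5A (2.38%, against 4.95%), the AP-1 letters in KDM3A, SMARCA2 and SMARCB1 (7.14%, against 6.05%) and the GATA letters AGATAAG in SMARCA2 and SMARCD3 (4.76%, against 3.27%). A YY1 motif was in CREBBP and KMT2B (4.76%, against 1.46%). All windows of a gene were searched together, so a gene with more RefSeq starts had more sequence to match, and these counts are small. Accessible regions within 1 kb of any start site gave another order for FOXA. Near these genes its share was 5.90% in control (3.72% to 9.25%), against 8.51% of all such regions. In mets it was 5.26% (3.10% to 8.80%), against 7.10%. Both intervals held the background. A match is a description of these windows only.

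The 94 other chromatin regulator genes gave a yardstick from the same kind of gene. In control, 91 of 94 had a promoter region, in HNF4G-KO 92, in the primary tumor line 91 and in mets 92. Of their strongest shared promoter regions in HPAF-II, 12 of 89 rose and 5 fell (13.5% and 5.62%), close to the 14.9% and 6.38% above. In KPC 8 of 91 rose and 11 fell (8.79% and 12.1%), so the 24.4% of falls among the 48 genes, within its interval of 14.2% to 38.7%, was not seen at that height in the other list. Outside promoters, 22.9% of their shared KPC regions fell, against the 30.3% above.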

How the data were processed

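The deposited files were 4 BED lists of regions, 1 per group of 4 replicates, in which the authors gave every region a score of unstated scale, used here only as a rank. The submitters' processing notes name Bowtie2 2.2.6, MACS2 2.1.1.20160309 and DiffBind, with hg38 and mm10. The ATAC–seq methods describe Omni-ATAC on HPAF-II cells, and the pooling of replicates, peak threshold and read shift are not given in the sources used here. No region end lay outside the chromosomes of these builds. A longer list holds more weak regions, so one-list counts mix accessibility with calling power. Depth is unknown.

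Start sites came from GENCODE v44 and vM21, and sequences from the RefSeq promoter table and the genomes of the same builds. Scripts used Python 3.11.15, pandas 2.3.3, scipy 1.17.1 and pysam 0.24.0, and were tested on simulated lists. A promoter region lay within 1 kb of a start site. Regions outside promoters were those over 1 kb from any annotated start. No test was run, since no value per replicate was held. The background was the same measure over all protein-coding genes or the regions within 50 kb of their start sites, and for promoter motifs over all genes of the RefSeq table. Alternatives covered distances, overlap, list length and ranking. Named are genes without a promoter region, the 5 per list with most one-list regions, the 5 per pair whose promoter rose or fell most, and those moving together in both pairs. Printed motif windows and other genes were picked after their values were seen. The members and lists were chosen with earlier results of these data known.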

Additional observations from a re-analysis of the deposited data

How the results depend on the processing

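Of 60 alternatives over 10 main results, 44 stayed within the limits set for each kind of result (1.5 times for a count), 14 moved the value and 2 reversed it. Counts within that limit still fell, to 34 and 36 of 48 genes with a promoter region in KPC among the upper 50% by score, and the share in 1 list lay below its background in 24 of 28. The control share (19.4%) became 23.5% with 50% of a region to be covered, 16.2% with regions within 500 bp counted as shared, 0.917% among the upper 50% by score and 8.996% in lists of equal size. The HNF4G-KO share (4.33%) became 6.51% within 10 kb, 0% among the upper 50% and 10.8% in lists of equal size. The primary tumor share (7.02%) became 4.89% within 500 bp, 0% among the upper 50% and 16.2% in lists of equal size, and the mets share (12.1%) became 1.11% and 6.60% under the last pair of settings. The median change in HPAF-II (1.60) was 2.55 both within 10 kb and at the genes' own promoters, and -2.46 with percentiles over the whole list, where all regions near coding genes had -3.95. The KPC median (-0.73) was 2.49 on that scale, where all had 3.68, so its sign depends on the ranking. Alternatives for single promoters covered only those that rose or fell most, 5 each way per pair. Of these 53 alternatives, added after the data were seen or planned, 48 gave the same reading and 4 moved, while Smarcd3 reversed to 13.0 with the highest-scoring partner. The cause was not tested. No paired analysis was possible because each group was 1 list without values per replicate, and for the same reason no replicate could be left out. Read depth is unknown, so a region missing from a list was not detected at that list's threshold.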
